A study of Homo sapiens with 4 samples.

Results

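The ERBB receptors, their ligands and the receptor inhibitor ERRFI1 were examined in T47D cells as a set of 10 genes, taken by symbol from the 23287 gene symbols of the RNA-seq files. The set holds the 4 receptors (EGFR, ERBB2, ERBB3 and ERBB4), 5 of the ligands (AREG, EREG, HBEGF, TGFA and EGF) and ERRFI1. T47D is an established human breast cancer cell line of luminal type that expresses the progesterone receptor (PR), and R5020 is a synthetic progestin that activates it. RNA was sequenced from cells kept in charcoal-stripped serum, which is depleted of steroids, and then given 10 nM R5020 for 3 h or the vehicle, ethanol (EtOH), for 3 h. In a separate experiment PR-bound DNA was sequenced (ChIP-seq) after 10 nM R5020 for 1 h, in cells of the same line. The cells had been in stripped serum for 3 days before ChIP and for 24 h before RNA isolation, so the experiments differ in this as well as in treatment time. Each condition was represented by 1 library, so none of the differences has a replicate check within these data and no p-value is given. The difference between culture dishes cannot be told apart from the difference between treatments. The paper measured selected genes again by RT-qPCR in biological replicates and reports the same direction for them, FOXA1 among them.

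ERBB receptors are tyrosine kinases of the cell surface. A ligand makes receptors pair, and the pair phosphorylates its own tails, to which adaptors bind that lead into the RAS-ERK and PI3K-AKT pathways. ERBB2 has no known ligand of its own and ERBB3 has a very weak kinase, so both depend on a partner. The ligands are made as membrane proteins and are released by ADAM proteases. ERRFI1, also called MIG6, binds the kinase domain of an active receptor and blocks it, and its own transcription is known to follow receptor activity. In the mammary gland the family takes part in duct growth and milk-cell differentiation, and amplified ERBB2 defines a clinical class of breast cancer.

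Expression is given as FPKM, the sequenced fragments of a transcript scaled to its length and to the size of the library, summed over the transcripts of a symbol. A gene was kept where its FPKM was at least 1 in at least 1 library, which left 11018 genes. Its change is log2((FPKM in R5020 + 1) / (FPKM in EtOH + 1)), and it was called higher or lower past 1.5-fold on this scale (0.58 in log2). The coverage in the files, turned into reads of 50 nt, came to 35055653 in EtOH and 36106319 in R5020. These sums hold only transcripts with a successful estimate. The paper reports more aligned reads for each library, and more in EtOH than in R5020. The median log2 ratio of genes with FPKM of at least 1 in both libraries was 0.01. Of 8 markers of luminal mammary epithelium, all 8 had an FPKM of at least 1 in R5020 and 6 in EtOH, where the authors' estimation had failed for KRT8 and KRT18 and both are listed at 0. None of the basal, endothelial and leukocyte markers (3 of each) reached 1, and of 4 fibroblast markers only COL1A1 did, at 5.12 in EtOH and 3.31 in R5020. Of the 8 luminal markers, 4 were called lower in R5020. FOXA1 had 64.3 FPKM in EtOH and 14.7 in R5020 (log2 change of -2.05), GATA3 had 253 and 126, ESR1 had 17.2 and 10.9 (-0.61), and PGR, the gene of PR itself, had 23.7 and 15.3 (-0.60). The other markers with a value in both libraries, KRT19 and EPCAM, changed by less than 1.5-fold. These luminal genes thus moved in the same direction as ERBB2 and ERBB3 below, and their part in that difference was not tested.

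Of the 10 genes, 7 reached an FPKM of 1 in a library, and 4 of these 7 were higher in R5020: EGFR, TGFA, EGF and ERRFI1. None was called lower. Over all genes kept, 7.67% were called higher and 4.14% lower. The 10 genes were chosen with earlier results of these data known, so these shares are not an independent comparison. ERBB2 and ERBB3 were both lower in R5020 but stayed just short of the threshold, ERBB4 stood at the same level, and AREG, EREG and HBEGF were under 1 in both libraries. EGF passed the expression filter only through its value in R5020, so its change was in part a condition of its being counted. In bulk RNA a change in the number of cells that express a gene and a change in its RNA per cell cannot be told apart.

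**Figure D1:**
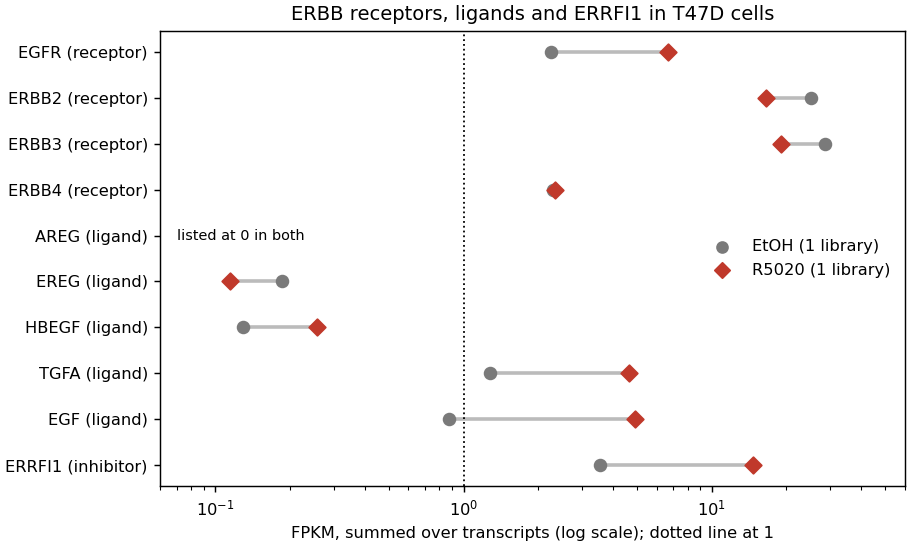
Level of the 10 genes in FPKM on a log axis, with the EtOH library as grey circles and the R5020 library as red diamonds. EGFR, TGFA, EGF and ERRFI1 lie to the right in R5020, ERBB2 and ERBB3 lie to the left, and EREG, HBEGF and AREG lie below 1 in both.

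EGFR is the receptor for EGF, TGFA and AREG. Its FPKM was 2.25 in EtOH and 6.69 in R5020, a log2 change of 1.24. By level it moved from rank 8623 to rank 4579 among all gene symbols. About 1183 reads lay behind the EtOH value and about 3329 behind that in R5020. Of its 4 listed transcripts only NM_005228, the full-length one of 5600 nt, was above 0, with deposited confidence intervals of 2.05 to 2.46 and 6.31 to 7.09 that do not overlap. Such an interval concerns the estimate within its library and not the spread between cultures. Of all transcripts above FPKM 1, 35.4% in each library had a value outside their own interval, so the intervals are a rough guide only. The 3 shorter transcripts, which encode forms without the kinase domain, were listed at 0 in both libraries. Among genes kept, 260 (2.36%) had a log2 change at least as large as that of EGFR.

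EGFR (hg19, chr7:55086725-55275031, plus strand) held 2 PR binding sites. The stronger, at chr7:55086760-55087599, covered 840 bases, and its midpoint lay in intron 1, 455 bases downstream of the transcription start. Its score of 530.35, which the authors derived from the log10 of the peak p-value, ranked 45 of 11181 sites, against a median score of 74.5. The other site, at chr7:55226366-55226804, lay in an intron 139.86 kb from the start and had a score of 140.77 (rank 557). The stronger site is shown first because its score was the highest of all sites near the 10 genes. The 300 bases around its midpoint on the plus strand of hg19 (chr7:55087030-55087329) read 5′ to 3′ as follows, and capitals, here and in the windows below, mark a match to ACANNNTGT, the spaced core of a steroid receptor palindrome, or to AGAACA, a single arm of it.

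EGFR site near the start: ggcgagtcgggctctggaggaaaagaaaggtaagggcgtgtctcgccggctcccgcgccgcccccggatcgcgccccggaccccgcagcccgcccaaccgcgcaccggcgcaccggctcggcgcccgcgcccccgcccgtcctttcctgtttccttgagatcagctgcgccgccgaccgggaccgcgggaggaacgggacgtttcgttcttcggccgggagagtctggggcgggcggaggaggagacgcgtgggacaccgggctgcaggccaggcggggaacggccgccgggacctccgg

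The window opens in the coding end of exon 1 and runs into intron 1. No base of this window is in capitals, since neither motif was found in it on either strand. TGTTTAC, a forkhead core, and AGATAA, the core bound by GATA factors, were not found in it either. The window was GC-rich, with 75.3% G or C and 46 CpG dinucleotides, against medians of 57.3% and 6 over the windows of 11178 sites. At least as many CpG dinucleotides were found in 0.250% of all windows, and at least as much G and C in 2.45%. Over all windows, ACANNNTGT was found in 8.20% and AGAACA in 17.7%. In 10792 windows placed 5 kb away from a site the shares were 7.69% and 19.3%, close to those at the sites. In the 112 sites with the highest scores, 1% of the total, the shares were 26.8% and 29.5%. The EGFR site belongs to these 112 sites, and its window carried neither motif. The site is wider than the window, and its bases outside the window were not searched. Inexact matches were not sought, so a motif elsewhere in the site or a divergent one would be missed. A site within 1 kb of a transcription start was found for 7.57% of the 19352 genes with a known strand, expressed or not. Of the 738 that were kept and called higher, 16.5% had one. The share of genes kept but not called was not computed, so these shares do not tell expression apart from change.

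**Figure D2:**
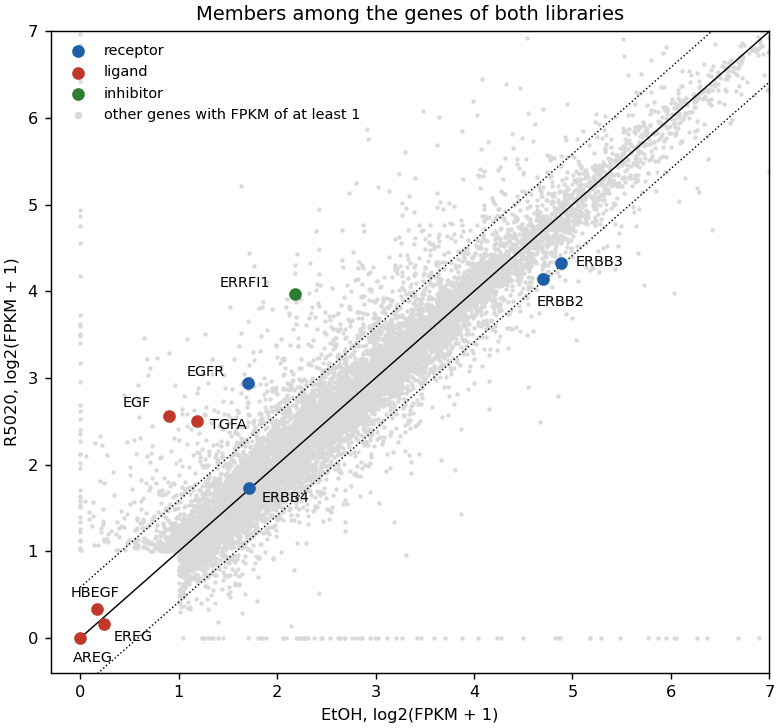
Each grey point is a gene with FPKM of at least 1 in a library, at log2(FPKM + 1) in EtOH (x axis) and in R5020 (y axis), drawn up to 7. The solid line marks equal levels and the dotted lines mark 1.5-fold. ERRFI1, EGF, TGFA and EGFR lie above the upper dotted line, ERBB2 and ERBB3 lie on the inner side of the lower dotted line, and ERBB4 lies on the line of equal levels.

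ERBB2 and ERBB3 were the most abundant of the receptor transcripts in both libraries. ERBB2 had 25.07 FPKM in EtOH and 16.64 FPKM in R5020, a log2 change of -0.56. ERBB3, the main partner of ERBB2 and the receptor for neuregulins, had 28.6 in EtOH and 19.1 in R5020, a log2 change of -0.56 as well. These values rest on about 11099 and 7086 reads for ERBB2 and on about 15412 and 10039 reads for ERBB3. Both genes were therefore lower in R5020 by nearly the same factor, and the ratio of ERBB2 to ERBB3 was 0.876 in EtOH and 0.871 in R5020. The FPKM of ERBB2 in R5020 was 0.664 of that in EtOH, which is past 1.5-fold when no pseudocount is added (log2 change of -0.59). The call for ERBB2 therefore turned on this setting. For ERBB3 the ratio was 0.668, short of 1.5-fold by either measure.

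Both ERBB2 transcripts were expressed. NM_004448, of 4624 nt, had 21.9 FPKM in EtOH and 13.9 FPKM in R5020 (log2 change of -0.62). NM_001005862, which starts upstream of it and has 4816 nt, had 3.13 and 2.73 (log2 change of -0.15), with intervals of 2.75 to 3.52 and 2.37 to 3.10 that overlap. The shorter transcript made up 87.5% of the ERBB2 total in EtOH and 83.6% in R5020. By these estimates the lower total in R5020 came mostly from the transcript of the downstream start. The transcripts differ in length by only 192 nt, so their split rests on the parts they do not share and is less sure than the total. Of the 2 ERBB3 transcripts only the full-length NM_001982 was above 0, with intervals of 28.1 to 29.6 and 18.6 to 19.9. NM_001005915, which encodes a short secreted form, was listed at 0 in both libraries.

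ERBB4, the other neuregulin receptor, had 2.29 FPKM in EtOH and 2.33 FPKM in R5020, a log2 change of 0.02. Its total was the steadiest of the 7 genes kept, but its transcripts were not equally steady. NM_001042599, of 11875 nt, had 1.22 in EtOH and 1.88 in R5020, and its share of the ERBB4 total was 53.1% and 80.5%. NM_005235, of 11923 nt, had 1.07 and 0.454, a share of 46.9% and 19.5%. The intervals of each transcript do not overlap between the libraries (1.11 to 1.33 against 1.75 to 2.01, and 0.974 to 1.17 against 0.386 to 0.523). They do not cover the spread between cultures. The TGFA transcripts below also have intervals far apart, for a split that is uncertain. The ERBB4 transcripts differ in length by 48 nt, the length of the exon at chr2:212252670-212252717 on the minus strand, which NM_005235 holds and NM_001042599 lacks. Only this exon and its junctions separate the forms, known as CYT-1 (with the exon) and CYT-2, so their split rests on the reads over 48 of 11923 nt, out of about 2442 and 2396 reads over ERBB4. CYT-1 is known to carry a binding site for PI3K that CYT-2 lacks. The exon is shown, read on its own strand, because it alone tells the forms apart. It was chosen after the values of the transcripts were seen.

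ERBB4 exon of CYT-1: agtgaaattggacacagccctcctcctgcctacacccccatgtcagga

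The 4 receptors together had a summed FPKM of 58.2 in EtOH and 44.8 in R5020, 0.769 of the former. EGFR made up 3.87% of this sum in EtOH and 14.9% in R5020, and ERBB4 3.93% and 5.21%. ERBB2 made up 43.1% and 37.2%, and ERBB3 49.1% and 42.7%. The sum of ERBB2 and ERBB3 was 53.7 in EtOH and 35.7 in R5020, while that of EGFR and ERBB4 was 4.54 and 9.02. ERBB2 transcripts outnumbered EGFR transcripts 11.1 to 1 in EtOH and 2.49 to 1 in R5020. In EtOH the order from high to low was ERBB3, ERBB2, ERBB4 and EGFR, where the ERBB4 level lay within the EGFR interval. In R5020 it was ERBB3, ERBB2, EGFR and ERBB4, and EGFR lay above ERBB4 by more than its interval.

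**Figure D3:**
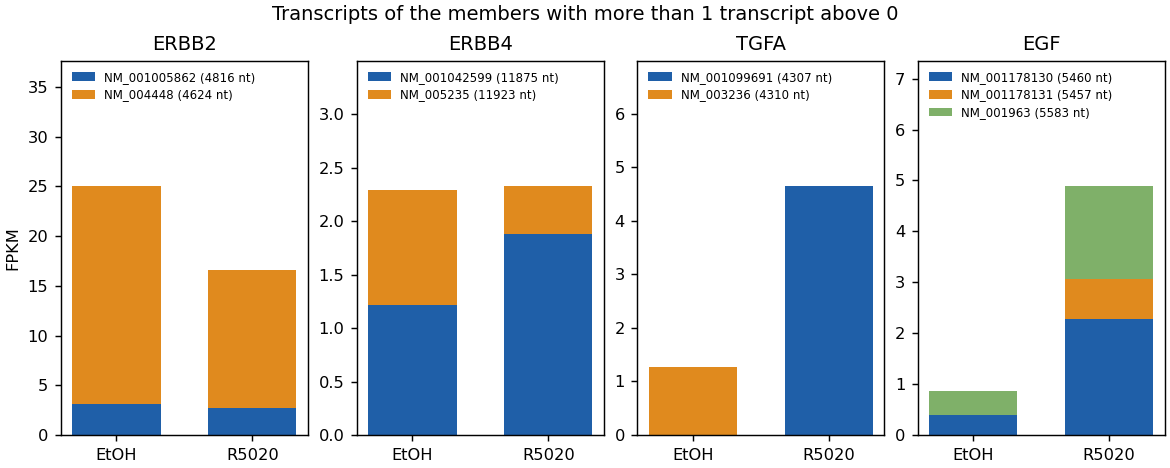
FPKM of each transcript of ERBB2, ERBB4, TGFA and EGF in the EtOH and R5020 libraries, stacked to the total of the gene, with transcript lengths in the keys. The ERBB4 total is nearly the same in both libraries while its transcripts differ, and the TGFA total sits on a different transcript in each.

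ERBB2 (chr17:37844393-37884915, plus strand) had 9 PR binding sites within 50 kb, more than any other of the 10 genes. As many or more were found for 432 of all gene symbols (1.86%). Of these sites, 4 overlapped the gene itself, with scores of 69.41, 70.76, 64.9 and 90.08, all within the range of ordinary sites. Another 3 lay downstream, 1.49 to 27.5 kb from the end of the gene, with scores of 79.48, 91.88 and 88.8, and the nearest of them fell in an exon that GENCODE gives to both ERBB2 and the adjoining MIEN1. The remaining 2 lay upstream, a site of score 78.75 in an intron of PGAP3 and the site at chr17:37823667-37824397. This last site had a score of 434.92 (rank 68), was intergenic, and lay 32.2 kb upstream of the main ERBB2 start. It lay only 109 bases from PNMT, the gene of the enzyme that makes adrenaline, which was listed at 0 in EtOH and had 0.130 FPKM in R5020. Within 50 kb the sites of neighbouring genes are shared, so the 9 sites cannot be given to ERBB2 alone. The strongest site is shown because it was second in score among all sites near the 10 genes, a choice made after the scores were seen (chr17:37823882-37824181, plus strand).

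ERBB2 upstream site: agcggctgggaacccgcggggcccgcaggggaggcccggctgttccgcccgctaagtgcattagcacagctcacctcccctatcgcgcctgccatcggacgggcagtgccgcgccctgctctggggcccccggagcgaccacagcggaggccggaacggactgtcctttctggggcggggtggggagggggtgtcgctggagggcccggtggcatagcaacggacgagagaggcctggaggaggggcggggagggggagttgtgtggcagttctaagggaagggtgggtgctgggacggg

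None of the 4 motifs was found in this window, which had 71.7% G or C and 25 CpG dinucleotides. At least as many CpG dinucleotides were found in 9.49% of all site windows. The windows of the strongest sites at EGFR and ERBB2 were thus both GC-rich and both without an exact match to the receptor motifs. Both sites extend beyond their windows, where no motif was searched. Elsewhere near ERBB2, the window of the site in PGAP3 held ACANNNTGT and that of the site of score 70.76 held TGTTTAC. EGFR was higher in R5020 and ERBB2 lower.

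The genes around ERBB2, which form the core of the amplified segment in ERBB2-positive tumours, were set beside it. Of 8 neighbours, 4 reached an FPKM of 1 in a library, and these 4 had a negative log2 change, as did 49.1% of all genes kept. GRB7 and PGAP3 passed the filter only through EtOH, so their sign was in part a condition of their being counted. GRB7, an adaptor that binds ERBB2, had 3.11 in EtOH and 0.988 in R5020 (log2 change of -1.05), and was the only neighbour called lower. It had 7 sites within 50 kb, the nearest at 0.748 kb. MIEN1 had 13.3 and 9.58 (-0.43), STARD3 4.32 and 3.39 (-0.28), and PGAP3 1.30 and 0.903 (-0.27). TCAP, PNMT, IKZF3 and PPP1R1B were under 1 in both libraries.

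ERBB3 (chr12:56473809-56497291, plus strand) had 3 PR binding sites within 50 kb, none in the gene. All 3 lay downstream in other genes, in a coding exon of ZC3H10 at 17.0 kb (score 65.82), in an intron of ESYT1 at 25.7 kb (score 50.23, close to the lowest score of 50) and in a UTR of MYL6B at 48.6 kb (score 79.92). The window of the site in ZC3H10 held AGAACA. ERBB3 was lower by nearly the same factor as ERBB2 but had only sites of low or middling score. ERBB4 (chr2:212240442-213403352, minus strand) had 1 site, at chr2:212261387-212261863, with a score of 169.7 (rank 335). It lay in an intron 1141.73 kb from the start, near the far end of a gene of 1163 kb. Its window (chr2:212261475-212261774) is shown as a contrast in base composition, and was also chosen after the values were seen.

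ERBB4 intron: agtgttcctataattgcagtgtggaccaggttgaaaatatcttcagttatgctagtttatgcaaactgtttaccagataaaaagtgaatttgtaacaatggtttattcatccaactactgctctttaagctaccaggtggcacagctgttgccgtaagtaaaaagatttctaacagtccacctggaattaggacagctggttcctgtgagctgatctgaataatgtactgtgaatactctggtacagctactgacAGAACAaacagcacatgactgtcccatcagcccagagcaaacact

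The capitals mark AGAACA at position 256, counted from 1 at the 5′ end. It was found in 17.7% of all site windows and in 19.3% of windows 5 kb away. TGTTTAC was found at position 67 and AGATAA at position 75. These motifs were found in 2.58% and 7.97% of all site windows, and in 3.47% and 14.0% of windows 5 kb away. The window had 40.7% G or C and 1 CpG dinucleotide, fewer than nearly all site windows, of which 96.7% had at least as many.

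Of the ligands, TGFA and EGF were higher in R5020. TGFA had 1.28 FPKM in EtOH and 4.66 FPKM in R5020, a log2 change of 1.31, with about 527 and 1832 reads. EGF had 0.873 in EtOH and 4.90 in R5020, a log2 change of 1.65, with about 452 and 2437 reads. Before the pseudocount, the ratio was 3.64 for TGFA and 5.61 for EGF, the latter being the largest of the 10 genes. In EtOH the level of TGFA was above that of EGF, and in R5020 the EGF level lay within the TGFA interval of 4.30 to 5.02.

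The TGFA total sat on NM_003236 (4310 nt) in EtOH, with NM_001099691 (4307 nt) listed at 0, and on NM_001099691 in R5020, with NM_003236 listed at 0. These transcripts differ in length by 3 nt, so the choice between them is uncertain and the values given for TGFA are those of their sum. For EGF all 3 transcripts were above 0 in R5020, NM_001178130 at 2.29, NM_001963 at 1.83 and NM_001178131 at 0.782. In EtOH they stood at 0.390, 0.483 and 0. Each of the EGF transcripts was thus listed higher in R5020 than in EtOH. Their lengths span only 126 nt, so the split between them is less sure than their sum. The EGF precursor is a large membrane protein, and whether it was released from these cells was not measured.

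EREG, HBEGF and AREG were low. EREG had 0.186 FPKM in EtOH and 0.114 FPKM in R5020, from about 45 and 33 reads. HBEGF, whose product also binds ERBB4, had 0.129 and 0.257, from about 28 and 52 reads. At this depth neither difference can be read as a change. AREG was listed at 0 in both libraries, at 2 loci with the same transcript (chr4:75310853-75320726 and chr4:75480629-75490485). The authors discarded reads that map to several places, so this 0 is given as listed and not as absence of the transcript. The 5 ligands together had a summed FPKM of 2.47 in EtOH and 9.93 in R5020, of which TGFA and EGF gave 2.15 and 9.56.

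TGFA (chr2:70674412-70781147, minus strand) had 2 PR binding sites, both in introns, at chr2:70743629-70744136 (score 78.98), 37.3 kb from the start, and at chr2:70716391-70716713 (score 90.51, rank 2325), 64.6 kb from the start. Each held AGAACA within its window, a motif found in 17.7% of all site windows and in 19.3% of windows 5 kb away. The higher-scoring one (chr2:70716402-70716701, plus strand) is shown as the best site of the only ligand called higher that had any.

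TGFA intron: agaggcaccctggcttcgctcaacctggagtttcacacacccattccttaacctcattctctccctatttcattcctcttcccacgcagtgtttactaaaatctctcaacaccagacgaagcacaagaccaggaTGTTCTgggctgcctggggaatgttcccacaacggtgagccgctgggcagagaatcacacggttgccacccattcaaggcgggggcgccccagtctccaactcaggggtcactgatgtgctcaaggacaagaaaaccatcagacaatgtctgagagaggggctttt

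The capitals at position 135 mark TGTTCT, which is AGAACA on the other strand. TGTTTAC was found at position 90. The window had 53.3% G or C and 8 CpG dinucleotides, near the medians of all sites. HBEGF (chr5:139712428-139726188, minus strand) had 1 site at 15.3 kb, at chr5:139741501-139742012 in a coding exon of SLC4A9, with a score of 60.46. EGF (chr4:110834040-110934118, plus strand) had none within 50 kb. The nearest site to EGF lay 521 kb away in an intron of ENPEP, with a score of 107.1. AREG and EREG lie in a cluster of ligand genes on chromosome 4, and the nearest site to both, the same one, was 1175 kb from AREG and 1095 kb from EREG, with a score of 79.74.

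ERRFI1 had 3.55 FPKM in EtOH and 14.7 FPKM in R5020. Its log2 change of 1.78 was the largest of the 10 genes, and 111 of the genes kept (1.01%) had a change at least as large. With a pseudocount of 0.1 the change of EGF was larger (2.36 against 2.02), so this order turned on the setting. ERRFI1 moved from rank 6956 to rank 2161, on about 1051 and 4237 reads. Its level relative to its target EGFR was 1.57 in EtOH and 2.19 in R5020, so the inhibitor transcript was above the EGFR transcript in both libraries. Relative to ERBB2 and ERBB3 it was below in both. A single transcript is listed, NM_018948 of 3129 nt. Both of its FPKM values lay outside their own deposited intervals, below 3.56 to 4.45 in EtOH and below 16.0 to 17.7 in R5020, and these intervals do not overlap. Of 25 transcript values above 0 among the 10 genes, only these 2 lay outside, against 35.4% of all transcripts above FPKM 1 in each library.

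ERRFI1 (chr1:8071779-8086393, minus strand) had no PR binding site within 50 kb. The nearest lay 233 kb away between genes, with a score of 68.8. Of the 4 genes called higher, EGFR and TGFA thus had a site and EGF and ERRFI1, with the largest changes, had none.

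Over the 10 genes, 6 had a PR site within 50 kb of the locus, or 60%: EGFR, ERBB2, ERBB3, ERBB4, HBEGF and TGFA. Over all gene symbols 45.6% had such a site, and over the genes kept 52.7%. Among genes called higher the share was 61.4%, among those called lower 61.0% and among those that changed less 51.5%. The share of the 10 genes was near those of all genes kept and of called genes. Among all genes at least 100 kb long 46.9% had a site. Of the 4 ERBB genes of this length, EGFR, TGFA and ERBB4 had a site and EGF did not. Of the sites near the 10 genes, those of EGFR, ERBB2 and ERBB4 include a score of at least 100, and those of ERBB3, HBEGF and TGFA do not. Over all gene symbols 14.2% had a site of this score within 50 kb.

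**Figure D4:**
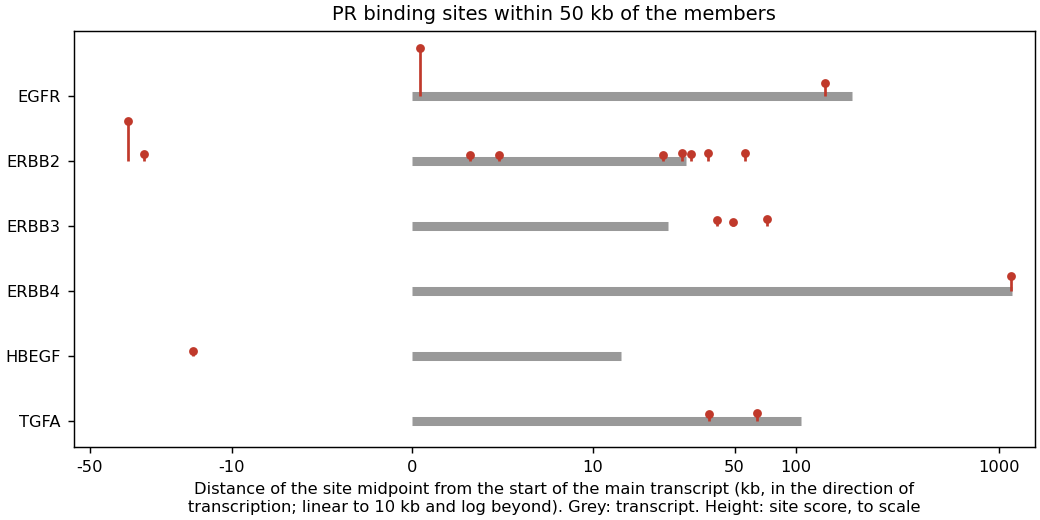
PR binding sites within 50 kb of the 6 genes that have any, by distance of the site midpoint from the start of the main transcript in kb, in the direction of transcription (linear to 10 kb and log beyond). Grey bars are transcripts and the height of a red stem is the score, to scale. The tallest stems are at the start of EGFR and upstream of ERBB2.

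The other genes of the pathway were taken as a list of 59, of which 49 reached an FPKM of 1 in a library. Of these, 12 were higher in R5020 (24.5%) and 2 lower (4.08%), against 7.67% and 4.14% over all genes kept. At 2-fold 5 were higher, where 3.43% of all genes kept were. The list was chosen with earlier results of these data known, so these shares are not an independent comparison. The median log2 change of the 49 genes was 0.11, against 0.01 over all genes kept and 1.24 over the 7 ERBB genes kept. EPGN among the higher genes and GRB7 among the lower were kept only through the library in which they were high. Sites within 50 kb were found for 34 of the 59 (57.6%), near the 45.6% of all gene symbols and 52.7% of genes kept.

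Among the 6 other ligands, EPGN, which binds EGFR, was called higher, with 0.493 FPKM in EtOH and 1.60 FPKM in R5020 (log2 change of 0.80). NRG4, which binds ERBB4, had 0.556 and 1.17 (0.48), short of the threshold. Both passed the filter through R5020 only. BTC, NRG2 and NRG3 were under 1 in both libraries. NRG1 was listed at 0 in both, and an estimate for 1 of its transcripts was not marked as successful. Summed FPKM of these 6 ligands was 1.22 in EtOH and 3.13 in R5020. None of the 4 genes of ligand release was past the threshold, which is near the 7.67% higher and 4.14% lower over all genes kept. The proteases ADAM17, which releases TGFA and AREG, and ADAM10, which releases EGF, had 3.73 and 4.09, and 10.8 and 11.8, respectively. RHBDF1, a partner of ADAM17, had 10.1 in EtOH and 6.74 in R5020 (-0.52), and passed 1.5-fold when no pseudocount was added.

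Of 12 genes of receptor down-regulation and inhibition, LRIG1 alone was called higher (8.33%, near the 7.67% over all genes kept). The remaining 11 stayed between -0.30 and 0.47 in log2 change. LRIG1 binds ERBB receptors and promotes their degradation. It had 13.8 FPKM in EtOH and 38.4 FPKM in R5020 (1.41), with a PR site in an intron (score 100.56). Relative to EGFR, LRIG1 was at 6.13 in EtOH and 5.74 in R5020. CBL, the ubiquitin ligase of EGFR, had 4.26 and 4.86. Its relative CBLB had 1.83 and 2.91 (0.47), and passed 1.5-fold when no pseudocount was added (ratio of 1.59).

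Of 8 adaptors, 4 were higher (50%) and 1 lower (12.5%), against 7.67% and 4.14% over all genes kept. GRB2, the link from phosphorylated receptors to RAS, had 18.4 in EtOH and 34.7 in R5020 (0.88), and SOS1, the exchange factor it carries, had 4.62 and 11.6 (1.16). The docking protein GAB2 had 3.99 and 7.93 (0.84), and the phospholipase PLCG1 had 6.90 and 12.5 (0.77). GRB7 was the lower one. SOS2 had 10.1 and 10.2, so SOS1 passed from a lower level than its relative to a higher one. SOS1 had no site within 481 kb, whereas GRB2 and PLCG1 had 3 each within 50 kb.

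Below the adaptors, none of 10 RAS-ERK genes was past the threshold. Over all genes kept 7.67% were higher and 4.14% lower, so 0 of 10 is near those shares. Of 8 PI3K-AKT genes kept, 4 were higher (50%), and only PDPK1 among them passed 2-fold. They were the catalytic subunit PIK3CB, at 10.4 in EtOH and 18.5 in R5020 (0.78), the regulatory subunits PIK3R1, at 6.34 and 11.0 (0.71), and PIK3R2, at 5.14 and 8.38 (0.61), and the AKT-activating kinase PDPK1, at 12.7 and 26.5 (1.01). Whether the groups differ in more than these counts was not tested.

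Of 10 genes whose transcripts are known to follow ERK activity, 5 reached an FPKM of 1. CCND1, the cyclin that drives entry into the cell cycle, had 22.2 in EtOH and 120.4 in R5020 (2.38), with a PR site in the gene. DUSP4, a phosphatase that dampens ERK, had 1.28 and 3.75 (1.06). EPHA4, an ephrin receptor, was lower, at 4.85 and 1.75 (-1.09). PHLDA1 had 5.98 and 4.69 (-0.30) and SPRY2, an inhibitor of receptor signalling, 0.502 and 1.19 (0.54). DUSP6, SPRY4, ETV4, ETV5 and EPHA2 stayed under 1 in both libraries. Of the 5 genes kept, 2 were thus called higher (40%) and 1 lower (20%), against 7.67% and 4.14% over all genes kept. With 5 genes these shares are rough.

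**Figure D5:**
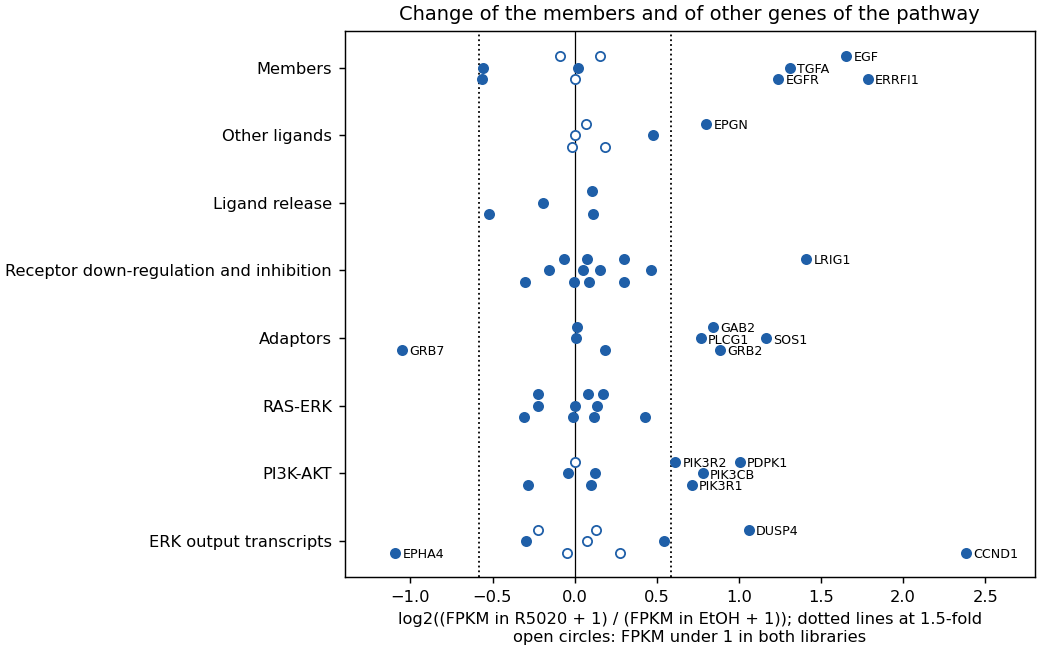
Log2 change (R5020 over EtOH, FPKM + 1) of the 10 genes and of 59 other pathway genes by role. Dotted lines mark 1.5-fold and open circles mark genes under FPKM 1 in both libraries. Genes past the threshold are named. No RAS-ERK or ligand release gene is among them, which is near the 7.67% higher and 4.14% lower over all genes kept.

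For each ERBB gene called higher, the 3 genes most like it were found by Euclidean distance over log2(FPKM + 1) in the 2 libraries, which measures likeness of level in these libraries and nothing more. Among those next to EGFR were KLHL8 and PER2 (distances of 0.037 and 0.046). Next to TGFA were MYO10, SPATA13 and LRRC31 (0.106 to 0.112), and next to EGF were DUSP1, ERN1 and PLEKHF1 (0.132 to 0.179). ERRFI1 lay closest to KLF4, at 0.014, which had 3.56 in EtOH and 14.5 in R5020, followed by LMO7 and TTLL12. KLF4, a transcription factor of epithelial differentiation, had 4 PR sites within 50 kb where ERRFI1 had none.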

How the data were processed

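Processed data of 3 libraries of T47D cells were used, 1 RNA-seq library each of R5020- and EtOH-treated cells and 1 PR ChIP-seq library. Input DNA was not analysed here, and enters only as the control in the authors' peak calling. Groups follow the sample labels, and dose and times follow the methods of the study.

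Per the labels, hg19, Bowtie 1.1.2, TopHat and Cufflinks were used. The authors discarded multi-mapped RNA-seq reads and deposited, for each of 41138 RefSeq transcripts, an FPKM with an interval, a status and a coverage. The FPKM deposited by the authors is scaled to length and library size, so it is not a count. The signal deposited by the authors as coverage served only to give depth, as coverage times length over 50 nt for transcripts with status OK. The authors' sites come from MACS against input, each with a deposited score, the log10 of the p-value times -10, of at least 50.

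Transcripts were summed by symbol and joined between libraries, with a pseudocount of 1, an FPKM of at least 1 in a library and a threshold of 1.5-fold. Distances run from the nearest edge of a site to the extent of all transcripts of a gene. Sites were annotated at their midpoint with GENCODE 44 on GRCh37, the assembly of hg19, from which sequences were read, and 3 sites on unplaced sequences had no window. Motifs were searched on both strands of 300-base windows, in which AGAACA can overlap ACANNNTGT. The genes named are the 10 members, pathway genes past the threshold or set beside a member of like role, ERBB2 neighbours and the 3 genes nearest to each member past the threshold. A few unchanged pathway genes were also named after their values were seen. Some genes that this rule covers are not reported here. Members and lists were chosen with earlier results of these data known. With 1 library per condition no test was made. Alternatives were another pseudocount, other filters, a higher threshold, rescaled FPKM, the highest transcript, other distances, a higher score and, chosen after seeing the data, no pseudocount. The scripts, run under Python 3.11.15 with pandas 2.3.3, numpy 2.4.6 and pysam 0.24.0, were tested on simulated data.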

Additional observations from a re-analysis of the deposited data

How the results depend on the processing

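EGFR, TGFA, EGF and ERRFI1 were called higher in the main setting and under all 7 alternatives. For TGFA the setting with the most abundant transcript alone (log2 change of 2.50) rests on a transcript listed at 0 in EtOH whose separation from its near-copy is uncertain, and bears little on the call. With FPKM of at least 2, TGFA and EGF were kept only through R5020. The number of ERBB genes called lower was 0 in the main setting and 1, ERBB2, with a pseudocount of 0.1, with the most abundant transcript alone and with no pseudocount, the last chosen after seeing the data. For the log2 changes of single members 39 alternative values were computed, of which 33 stayed on their side of 1.5-fold, 6 passed it (ERBB2, EREG and HBEGF) and 0 changed sign. HBEGF and EREG remain under the expression filter. Pathway genes called higher numbered 12, and 5 at a threshold of 2-fold, 11 with FPKM of at least 2 or with the most abundant transcript alone, and 15 with a pseudocount of 0.1 or none. Those called lower numbered 2, and 3 with no pseudocount. With sites of score at least 100, 3 of the members (main setting 6) and 8 of the pathway genes (main setting 34) had a site within 50 kb, against 14.2% of all gene symbols. Over all genes kept, 845 higher and 456 lower calls became 1092 and 787 with a pseudocount of 0.1, 1127 and 845 with none, and 378 and 144 at 2-fold. The cause was not tested beyond the construction of each setting. No paired analysis was possible because each condition has 1 library, for which reason no replicate could be left out. The files do not give fragment counts behind each FPKM, so low genes (EREG, HBEGF, AREG) allow no statement on change.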
